A study of Mus musculus with 12 samples.

Results

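The niche factors described here are 9 genes whose products, made by cells around the blood stem cells of the bone marrow, keep those stem cells in place, alive and out of cycle or steer the lineages that arise from them. They are *Cxcl12*, *Kitl*, *Jag1*, *Jag2*, *Dll1*, *Dll4*, *Angpt1*, *Lepr* and *Il7*, taken by symbol from the 55421 Ensembl genes of the deposited count table, whatever their values. RNA was sequenced from cells that were sorted by flow cytometry with an endothelial gate from the bone marrow of 12 mice aged 20 weeks, with 1 library per mouse and 3 per group. Naive C57BL/6J mice served as controls. Hypertension was produced in C57BL/6J mice by chronic infusion of angiotensin II, atherosclerosis in mice carrying the Apoe tm1Unc knockout by a western-type diet, and myocardial infarction (MI) in C57BL/6J mice by permanent ligation of a coronary artery. The labels place the MI samples 2 days after the ligation, while the study's text gives a later day. The same 3 controls served every disease group, the atherosclerosis group differed from them in both genotype and diet, and libraries carried the replicate numbers 2, 3 and 4. The labels do not say how the mice were handled in common, so the spread between libraries may be partly technical.

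CXCL12 is the chemokine that holds stem cells in the marrow through its receptor CXCR4, and KITL (stem cell factor) is the ligand of the receptor tyrosine kinase KIT. JAG1, JAG2, DLL1 and DLL4 are membrane-bound ligands of the Notch receptors, angiopoietin 1 (ANGPT1) activates the endothelial receptor TIE2, and IL-7 is the growth factor of lymphoid precursors. The leptin receptor (*Lepr*) is itself a receptor, and it marks the perivascular stromal cells that are the main source of CXCL12 and KITL in adult marrow, while arteriolar and sinusoidal endothelium adds its own KITL and Notch ligands.

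Library totals lay between 17007088 and 25136936 counts. The sort kept cells without TER-119, CD41 and CD45 and with high CD31 and SCA-1, yet in these libraries the 26 endothelial markers summed to 209 to 379 CPM (counts per 1e6 of the library total, with totals scaled by TMM), and the 13 neutrophil markers to between 34122 and 99391 CPM. *Cdh5*, a defining endothelial gene, was present in every library but low, at 2.00 to 4.19 CPM, and *Ptprc*, which encodes CD45, was at 463 to 814 CPM. The 20 mesenchymal stromal markers summed to 220 to 479 CPM. In such a mixture fewer cells of a type and less RNA per cell cannot be told apart, and this holds for every value that follows. *Pecam1* and *Ly6a* encode the antigens of the gate, and depletion before the sort included an antibody to the product of *Il7r*.

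All 9 niche factors were among the 15999 genes that passed the filter on low counts, but they differed widely in level. Per kilobase of exon, which allows genes to be compared within a library, *Cxcl12* had a median of 21.4 CPM per kb over the 12 libraries and ranked first among the 9 in each of them. This level was above that of 83.8% of the genes tested. *Angpt1* (2.88 CPM per kb), *Kitl* (2.78 CPM per kb), *Jag1* (1.93 CPM per kb) and *Lepr* (1.33 CPM per kb) formed a middle group. *Dll4* (0.400 CPM per kb), *Jag2* (0.245 CPM per kb), *Dll1* (0.102 CPM per kb) and *Il7* (0.0783 CPM per kb) were low, and the level of *Il7* exceeded that of only 1.88% of the genes tested.

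Not every step of this order exceeded the spread between libraries. *Cxcl12* stood above *Angpt1* in 12 of 12 libraries, by 2.30 to 12.3 times, and *Lepr* stood above *Dll4* in 12 of 12. *Angpt1* was above *Kitl* in only 8 libraries and *Kitl* above *Jag1* in 9, so these neighbours did not differ beyond their spread. *Jag1* was above *Lepr* in 9 libraries, and in 6 when the longest annotated transcript was used as the length. Within the low group *Dll4* was above *Jag2* in 11 libraries, *Jag2* above *Dll1* in 11 and *Dll1* above *Il7* in 9. Counts of *Dll1* were 3 to 32 per library and those of *Il7* were 2 to 21, so both sat close to the 3 counts taken as the smallest measured amount.

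**Figure D1:**
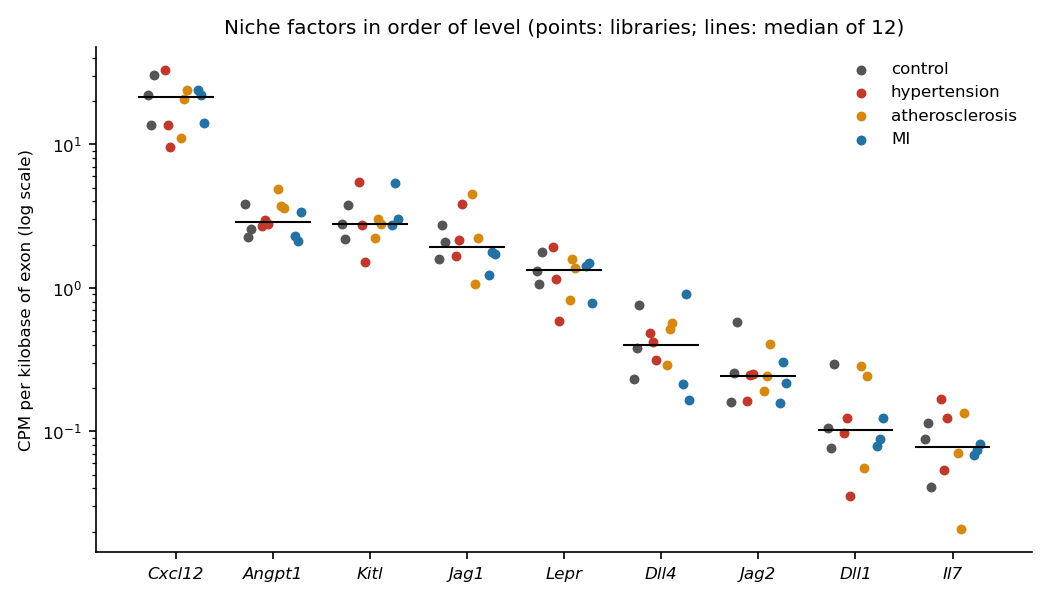
Level of each niche factor gene in CPM per kilobase of exon (log scale) in the 12 libraries, ordered by the median, which is drawn as a line; points are libraries, coloured by group. *Cxcl12* lies above every other niche factor in each library, while the points of *Angpt1*, *Kitl* and *Jag1* overlap.

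The question put to each disease was whether the niche factors differed from controls. None of the 9 was called in any comparison by edgeR's quasi-likelihood test at an adjusted p under 0.05. In hypertension 0 of 9 were called and 0 had an unadjusted p under 0.05, beside 0.0% and 3.71% of all 15999 genes tested. In atherosclerosis 0 of 9 were called and 0 had an unadjusted p under 0.05, beside 0.144% and 5.97% of all genes. In MI these counts were again 0 and 0, beside 0.0% and 2.8% of all genes. edgeR's likelihood-ratio test and DESeq2 also called 0 of the 9 in each of these comparisons. The libraries of a disease group and the controls overlapped in CPM for every niche factor, whereas they did not overlap for 16.8% of all genes in hypertension, 9.51% in atherosclerosis and 8.86% in MI. An F test over the 4 groups called 0 of the 9, with 0.144% of all genes called, and its smallest value was that of *Angpt1* (adjusted p = 0.686 by edgeR). Median log2 fold changes of the 9 were -0.18 in hypertension, -0.06 in atherosclerosis and -0.15 in MI, beside medians of -0.01, 0.01 and 0.00 over all genes tested.

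Most niche factors varied widely among the mice of a group. The standard deviation of log2 CPM within groups was 0.65 for *Cxcl12*, 0.58 for *Kitl*, 0.58 for *Lepr* and 0.65 for *Jag1*, against a median of 0.31 over all genes tested. Among genes of similar level, 97.5% had a smaller spread within groups than *Cxcl12*, 96.5% a smaller one than *Kitl*, 94.9% than *Jag1* and 93.2% than *Lepr*. This share was 91.5% for *Dll4* and 87.7% for *Dll1*, but 75.5% for *Il7* and 73.2% for *Jag2*. It was lowest for *Angpt1*, at 57.1%, with a standard deviation of 0.29. Group membership accounted for 52.0% of the variance of *Angpt1* and for 5.0% to 22.4% of that of the other 8, with a median of 27.3% over all genes tested.

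**Figure D2:**
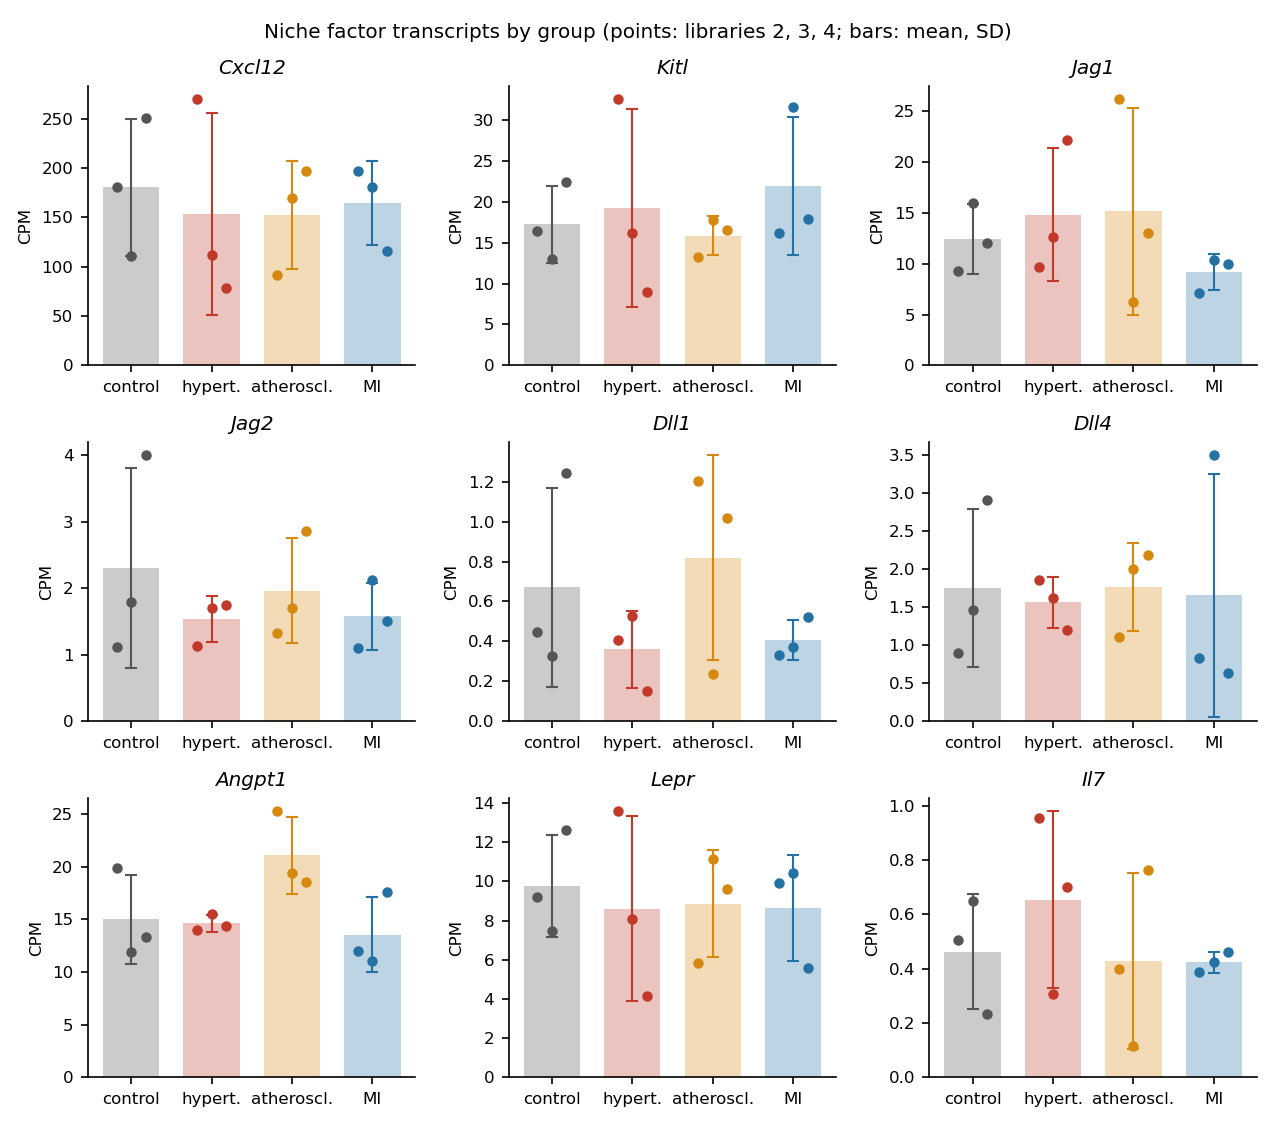
CPM of each niche factor in the 4 groups; points are the libraries numbered 2, 3 and 4 from left to right, bars are group means and error bars the SD (n = 3). For every gene the points of each disease group overlap those of the controls, and *Angpt1* has its 3 atherosclerosis points above all points of hypertension and MI.

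*Cxcl12* (ENSMUSG00000061353) lies on the plus strand of chromosome 6 at chr6:117168535-117181367 of GRCm38. Its level in controls 2, 3 and 4 was 180, 111 and 250 CPM. In hypertension it was 269, 112 and 77.9 CPM. In atherosclerosis it was 91.2, 169 and 196 CPM, and in MI 196, 181 and 116 CPM. The highest and the lowest of the 12 libraries were both from hypertensive mice, 3.46 times apart, and each disease group covered much of the control range. Mean CPM was 181 ± 69.5 (SD, n = 3) in controls and 153 ± 102 in hypertension, and the fitted fold was 0.848 (95% interval 0.445 to 1.62; edgeR adjusted p = 0.965). In atherosclerosis the fold against controls was 0.843 (0.442 to 1.61; edgeR adjusted p = 0.962). In MI it was 0.910 (0.478 to 1.73; edgeR adjusted p = 1.00).

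*Lepr* (ENSMUSG00000057722) lies on the plus strand at chr4:101717404-101815352, and its transcripts include those of the signalling receptor for leptin. Controls 2, 3 and 4 had 9.19, 7.47 and 12.6 CPM. Hypertension gave 13.6, 8.10 and 4.16 CPM, atherosclerosis 5.83, 11.2 and 9.63 CPM, and MI 9.94, 10.4 and 5.56 CPM. The library with the most *Cxcl12* (hypertension 2) also had the most *Lepr*, and the library with the least *Cxcl12* (hypertension 4) had the least. Log2 fold changes against controls were -0.18 in hypertension, -0.14 in atherosclerosis and -0.18 in MI, with standard errors of 0.39 and edgeR adjusted p of 0.970, 0.971 and 1.00.

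*Kitl* (ENSMUSG00000019966), on the plus strand at chr10:100015630-100100416, was measured at 16.4, 12.9 and 22.3 CPM in controls. It was at 32.5, 16.2 and 8.91 CPM in hypertension, where the same libraries were highest and lowest as for *Cxcl12* and *Lepr*. Atherosclerosis gave 13.3, 17.8 and 16.5 CPM. In MI the values were 16.2, 31.6 and 17.9 CPM, and MI 3 stood apart from the other MI libraries in *Kitl* but not in *Cxcl12* or *Lepr*. The fold against controls was 1.27 in MI (95% interval 0.709 to 2.28; edgeR adjusted p = 1.00), 1.11 in hypertension (0.623 to 1.99; edgeR adjusted p = 0.974) and 0.918 in atherosclerosis (0.512 to 1.65; edgeR adjusted p = 0.98).

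*Cxcl12* and *Lepr* varied together over the 12 libraries, and *Kitl* varied less closely with both. Of the other 15998 genes tested, *Lepr* had the highest Pearson r of log2 CPM with *Cxcl12*, at 0.93 (n = 12 libraries). By Spearman's rho, at 0.86, *Lepr* was in place 38 for *Cxcl12*, and *Cxcl12* was in place 27 for *Lepr*. The r value was 0.94 after group means were removed. It was 0.88 without the libraries hypertension 4 and atherosclerosis 2, which lay farthest from the median of *Cxcl12*. Next for *Cxcl12* were *Igfbp7* (r = 0.92), which encodes a secreted insulin-like growth factor-binding protein, and *Syne3* (r = 0.92), which encodes a protein of the nuclear envelope. For *Lepr* the likest genes were *Cxcl12* and, slightly ahead of it, *Kif4* (r = 0.94), a mitotic kinesin, and *Ccn5* (r = 0.93), a matricellular protein. *Kitl* correlated with *Cxcl12* at 0.78 (0.63 without hypertension 4 and atherosclerosis 2) and with *Lepr* at 0.78. Among the 15998 genes it was in place 168 for *Cxcl12* and place 125 for *Lepr*. For *Kitl* itself, *Cxcl12* was in place 32 and *Lepr* in place 28. The 3 genes likest to *Kitl* were *Kif24* (r = 0.92), *Plk4* (r = 0.90), which controls centriole duplication, and *Fkbp10* (r = 0.88), a collagen chaperone. The points of these correlations share library depth and the cell mixture of each sort, and the highest of the 15998 values was at least 0.80 for each of the 9 niche factors.

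The ratio of *Cxcl12* to *Lepr*, which does not depend on the scaling of a library, lay between 13.9 and 20.9 in all 12 libraries, while *Cxcl12* itself spanned 3.46 times. Control libraries had ratios of 14.9 to 19.8. The ratio ranged from 13.9 to 19.9 in hypertensive mice, from 15.2 to 20.4 in atherosclerotic mice and from 17.4 to 20.9 after MI. The groups therefore overlapped in the ratio as they did in the levels. The ratio of *Kitl* to *Cxcl12* was less even, at 0.0827 to 0.175, with its extremes in MI 2 and MI 3.

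For these 3 correlated genes, the stretches of genome just before their starts are shown, as given by RefSeq for GRCm38.p6. Any match to 3 motifs is in capitals. The motifs were the FOX motif (TGTTTAC), the RBPJ motif through which Notch acts (GTGGGAA) and the TATA box (TATAAA), each searched on both strands in the 250 bases before a RefSeq start. The stretches run 5′ to 3′ on the plus strand, at chr6:117168285-117168534 for *Cxcl12*, chr4:101717157-101717403 for *Lepr* and chr10:100015571-100015629 for *Kitl*, and they end before the outermost annotated transcript start, which leaves 59 bases for *Kitl*.
Cxcl12: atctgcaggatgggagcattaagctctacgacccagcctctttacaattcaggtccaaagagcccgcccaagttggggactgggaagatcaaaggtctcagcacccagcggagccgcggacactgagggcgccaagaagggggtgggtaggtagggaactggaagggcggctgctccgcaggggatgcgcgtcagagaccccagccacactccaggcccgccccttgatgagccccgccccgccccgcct
Lepr: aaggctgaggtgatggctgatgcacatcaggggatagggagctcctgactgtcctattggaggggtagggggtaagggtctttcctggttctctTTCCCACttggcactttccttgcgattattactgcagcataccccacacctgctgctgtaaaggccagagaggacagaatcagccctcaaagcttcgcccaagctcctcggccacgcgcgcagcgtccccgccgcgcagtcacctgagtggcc
Kitl: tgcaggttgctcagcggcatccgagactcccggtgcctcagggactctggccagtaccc
The FOX motif occurred in 3.17% of the 32851 RefSeq promoters and in none of the 7 niche factors with a promoter entry. The RBPJ motif occurred in 5.42% of promoters and, on the minus strand, before each RefSeq start of *Lepr*. The match in capitals is 156 bases before the start at chr4:101717407. Another lies 151 bases before a later start at chr4:101717906, outside the stretch shown. The TATA motif occurred in 12.4% of promoters and in that of *Kitl*, 25 bases before the RefSeq start and thus inside the longer annotated transcript, outside the stretch shown. No motif searched was shared by the 3 genes in these windows. GC content of the 250 bases was 64.4% for *Cxcl12*, 58.4% for *Lepr* (54.8% before its later start) and 69.2% for *Kitl*, with a median of 52.4% over all promoters.

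Summed markers of several cell types varied with these 3 genes over the libraries. For *Cxcl12*, *Lepr* and *Kitl* in turn, r was 0.71, 0.74 and 0.45 with mesenchymal stromal markers, 0.63, 0.66 and 0.31 with erythroid markers and 0.62, 0.53 and 0.48 with endothelial markers. With neutrophil markers r was 0.54, 0.53 and 0.42, and with B lineage markers -0.53, -0.47 and -0.39. These values changed without the 2 libraries farthest from the median of each gene. They were then 0.73, 0.45 and 0.52 for stromal, 0.42, 0.66 and 0.46 for erythroid and 0.59, 0.37 and 0.67 for endothelial markers. For neutrophil markers they were 0.05, 0.45 and 0.52, and for B lineage markers -0.17, -0.49 and -0.46. Over all 12 libraries *Kitl* also had 0.49 with plasma cell markers, 0.47 with T and NK markers and 0.51 with osteoblast markers. Without hypertension 2 and MI 3 these were 0.13, 0.43 and -0.20. In the stromal list *Vcam1*, which macrophages express as well, made up 56.7% to 74.5% of the sum, and *Col1a1* was at 34.2 CPM in atherosclerosis 4 against at most 4.36 CPM elsewhere, so the sum was also taken over the other 18 markers, a choice made after these values were seen. This sum was 95.7 to 136 CPM in controls, 90.3 to 172 CPM in hypertension, 147 to 151 CPM in atherosclerosis and 95.8 to 127 CPM in MI. The atherosclerosis libraries lay above all controls in it. The defining stromal genes *Adipoq* (1.95 to 6.85 CPM) and *Foxc1* (1.68 to 5.22 CPM) were present in every library and, of the 20 markers, only *Ngfr* was at 0 counts in any. Over the 12 libraries the 18 markers correlated at 0.60 with *Cxcl12*, 0.62 with *Lepr* and 0.57 with *Kitl*, and at 0.83, 0.77 and 0.90 after group means were removed. Without the 2 libraries farthest from the median of each gene the values were 0.80, 0.41 and 0.42. The part of these cell types in the variation of the niche factors was not tested.

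**Figure D3:**
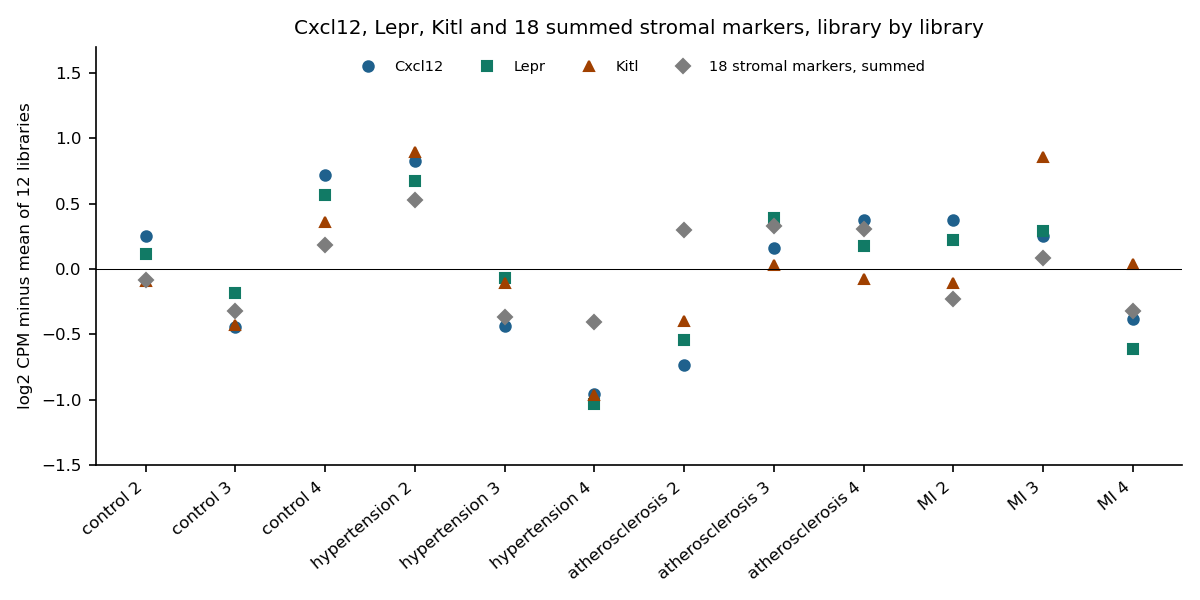
Log2 CPM of *Cxcl12*, *Lepr*, *Kitl* and the sum of 18 stromal markers in each of the 12 libraries, each minus its own mean over the libraries. The symbols of *Cxcl12* and *Lepr* lie close together in most libraries, all 3 genes are lowest in hypertension 4, and *Kitl* departs from *Cxcl12* and *Lepr* in MI 3. The stromal sum lies apart from the genes in some libraries. In the atherosclerosis library with the least *Cxcl12*, all 3 genes are below their means while the stromal sum is above its own.

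Of the Notch ligands, *Jag1* (ENSMUSG00000027276; minus strand, chr2:137081456-137116644) was the most abundant. Controls had 9.25, 16 and 12.1 CPM and hypertension 9.67, 12.6 and 22.2 CPM. Atherosclerosis gave the highest and the lowest value of all, at 26.2, 6.23 and 13 CPM, while MI was narrow at 7.12, 10.4 and 10.02 CPM. Log2 fold changes against controls were 0.25 ± 0.43 (SE) in hypertension, 0.29 ± 0.43 in atherosclerosis and -0.44 ± 0.44 in MI (edgeR adjusted p = 0.964, 0.953 and 1.00). The fit without atherosclerosis 2 turned the value for atherosclerosis to -0.35.

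The pattern of *Jag1* ran against that of *Cxcl12* (r = -0.67, rho = -0.54, n = 12), but at -0.31 without hypertension 4 and atherosclerosis 2 it rested mainly on those libraries. It also ran against the summed erythroid markers (r = -0.86) and the summed neutrophil markers (r = -0.86), at -0.76 and -0.65 without those libraries. With T and NK markers r was -0.62 and with B lineage markers 0.69, at -0.20 and 0.34 without the same libraries. Atherosclerosis 2, with the most *Jag1*, had the smallest erythroid sum (11523 CPM) and the smallest neutrophil sum (34122 CPM). It also had the largest B lineage sum (1306 CPM). The likest genes were *Sgms2* (r = 0.96), *Wdr37* (r = 0.96) and *Vav1* (r = 0.96), the last a signalling protein of blood cells. Whether these blood-cell values take part in the variation of *Jag1* was not tested.

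*Jag2* (ENSMUSG00000002799; minus strand, chr12:112907819-112929776) was at 1.12, 1.79 and 4.00 CPM in controls, and control 4 was the highest of the 12 libraries. Hypertension gave 1.13, 1.71 and 1.75 CPM, atherosclerosis 1.33, 1.7 and 2.85 CPM and MI 1.10, 2.12 and 1.51 CPM. Log2 fold changes of -0.60 ± 0.46 (SE) in hypertension, -0.25 ± 0.45 in atherosclerosis and -0.56 ± 0.46 in MI did not pass the test (edgeR adjusted p = 0.951, 0.962 and 1.00). They depended on control 4, without which they were 0.08, 0.44 and 0.12.

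*Dll4* (ENSMUSG00000027314; plus strand, chr2:119325784-119335962), the arterial endothelial ligand, was at 0.897, 1.46 and 2.91 CPM in controls. Hypertension gave 1.86, 1.62 and 1.20 CPM and atherosclerosis 1.11, 2.00 and 2.19 CPM. In MI the values were 0.828, 3.49 and 0.637 CPM, and MI 3 and MI 4 were the highest and the lowest of all 12 libraries. Fold changes against controls were 0.878 (95% interval 0.367 to 2.10) in hypertension, 0.987 (0.414 to 2.35) in atherosclerosis and 0.933 (0.388 to 2.24) in MI, and a change of 2 times in either direction lies inside each interval. *Gm14207*, on the opposite strand of this locus, had 187 counts over the 12 libraries, and the strand setting of the counts is not given in the sources used here.

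*Dll1* (ENSMUSG00000014773; minus strand, chr17:15367354-15376872) had 8, 6 and 32 counts in controls. Hypertension gave 9, 12 and 3 counts, atherosclerosis 27, 4 and 20 counts and MI 6, 7 and 9 counts. Only 3 libraries, control 4 and atherosclerosis 2 and 4, reached 20 counts. Log2 fold changes were -0.91 ± 0.65 (SE) in hypertension, 0.26 ± 0.61 in atherosclerosis and -0.76 ± 0.66 in MI (edgeR adjusted p = 0.951, 0.966 and 1.00), and without control 4 they were -0.07, 1.10 and 0.08.

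*Jag2* and *Dll4* had a positive correlation (r = 0.69, rho = 0.73, n = 12 libraries, and r = 0.59 without control 4 and atherosclerosis 4). Among the other 15998 genes tested, *Dll4* was in place 381 for *Jag2*, and *Jag2* was in place 194 for *Dll4*. *Jag2*, *Dll1* and *Dll4* correlated with the summed endothelial markers at 0.61, 0.69 and 0.54. For *Jag2* that value rested on control 4 and atherosclerosis 4, since Spearman's rho was 0.25 and r was -0.09 without them. Without the libraries farthest from its own median r remained at 0.71 for *Dll1* and 0.52 for *Dll4*. For *Jag1* it was -0.20 with all libraries. Their likest genes were *Acap1* (r = 0.93), *Abcd3* (r = 0.91) and *Tle1* (r = 0.91), a corepressor, for *Jag2*. For *Dll4* they were *Pigg* (r = 0.91), *Slc25a10* (r = 0.90) and *Snap47* (r = 0.90). For *Dll1* they were *Scarf1* (r = 0.87), an endothelial scavenger receptor, *Npr2* (r = 0.84) and *Slc16a13* (r = 0.83).

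**Figure D4:**
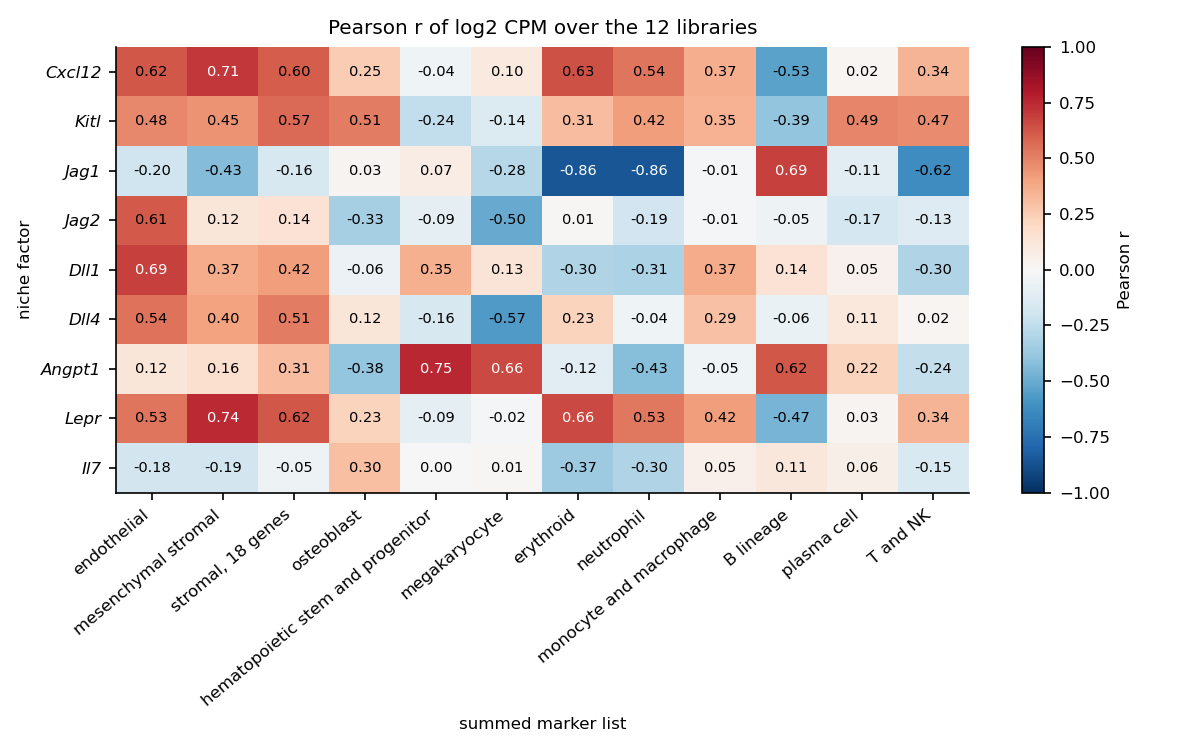
Pearson r of log2 CPM over the 12 libraries between each niche factor (rows) and the summed level of each marker list (columns), with the 18 stromal genes beside the full stromal list. *Cxcl12*, *Lepr* and *Kitl* have positive values with stromal, erythroid, endothelial and neutrophil markers and negative values with B lineage markers. *Jag1* is at -0.86 with the erythroid and neutrophil lists, and *Angpt1* is highest with stem and progenitor (0.75) and megakaryocyte (0.66) lists.

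*Angpt1* (ENSMUSG00000022309; minus strand, chr15:42424723-42676977), which stem cells and megakaryocytes of the marrow express as well as stromal cells, came closest to a difference between groups. Controls 2, 3 and 4 had 19.8, 11.9 and 13.3 CPM and hypertension 14, 15.5 and 14.4 CPM. Atherosclerosis gave 25.3, 19.4 and 18.6 CPM and MI 12, 11.1 and 17.6 CPM. The 3 atherosclerosis libraries were above all libraries of hypertension and MI, and 2 of them were below control 2. Against controls the fold in atherosclerosis was 1.41 (95% interval 0.999 to 1.98), with an adjusted p of 0.831 by edgeR, and the exact two-sided permutation test of CPM gave p = 0.3, where 0.1 is the smallest that 3 libraries against 3 allow. In hypertension the fold was 0.977 (0.694 to 1.37) and in MI 0.903 (0.641 to 1.27).

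Directly between disease groups, *Angpt1* was 1.44 times as high in atherosclerosis as in hypertension (95% interval 1.02 to 2.02), with an adjusted p of 0.826 by edgeR. In MI it was 0.642 times that in atherosclerosis (0.456 to 0.905), with an adjusted p of 0.286 by edgeR. Both are differences that failed the correction over all genes. It was the only one of the 9 with an unadjusted p under 0.05 or with groups that did not overlap in these contrasts, against 5.94% and 10.9% of all genes in atherosclerosis against hypertension and 12.7% and 13.7% in MI against atherosclerosis. In MI against hypertension 0 of 9 niche factors met either rule, with 8.41% and 19.6% of all genes doing so. edgeR called 0 of 9 at an adjusted p under 0.05 in these 3 contrasts, as did DESeq2, beside 0.0625%, 0.269% and 0.0% of all genes in atherosclerosis against hypertension, MI against atherosclerosis and MI against hypertension. *Gm17473*, on the opposite strand of the locus, had 38 counts in all.

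Over the 12 libraries *Angpt1* varied with the 10 stem and progenitor markers (r = 0.75) and the 8 megakaryocyte markers (r = 0.66), at 0.65 and 0.68 without atherosclerosis 2 and MI 3. Stem and progenitor markers summed to 215 to 270 CPM in atherosclerosis, above all other libraries (154 to 198 CPM in controls, 176 to 181 CPM in hypertension and 166 to 197 CPM in MI). Megakaryocyte markers summed to 863 to 1104 CPM in atherosclerosis and overlapped with controls (378 to 1712 CPM) and MI (446 to 1075 CPM). *Itga2b*, which encodes the CD41 that the gate excluded, was at 44.1 to 139 CPM. The genes most like *Angpt1* were *Cd226* (r = 0.91), an adhesion receptor of lymphocytes and platelets, *Pde10a* (r = 0.90) and *Nrgn* (r = 0.89). The part of these cells in the values of *Angpt1* was not tested.

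*Il7* (ENSMUSG00000040329; minus strand, chr3:7569994-7613760) had 9, 12 and 6 counts in controls and 21, 7 and 14 counts in hypertension. Atherosclerosis gave 9, 2 and 15 counts and MI 7, 8 and 8 counts. Fold changes against controls were 1.44 (95% interval 0.599 to 3.46) in hypertension, 0.961 (0.382 to 2.42) in atherosclerosis and 0.941 (0.370 to 2.39) in MI, and each interval includes a level 2 times that of controls. *Gm16685* on the opposite strand had 25 counts over the 12 libraries, and the likest genes of *Il7* reached only r = 0.80 (*Ankrd40*), 0.79 (*Trp53bp2*) and 0.77 (*Ccdc9*), the lowest of the 9.

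**Figure D5:**
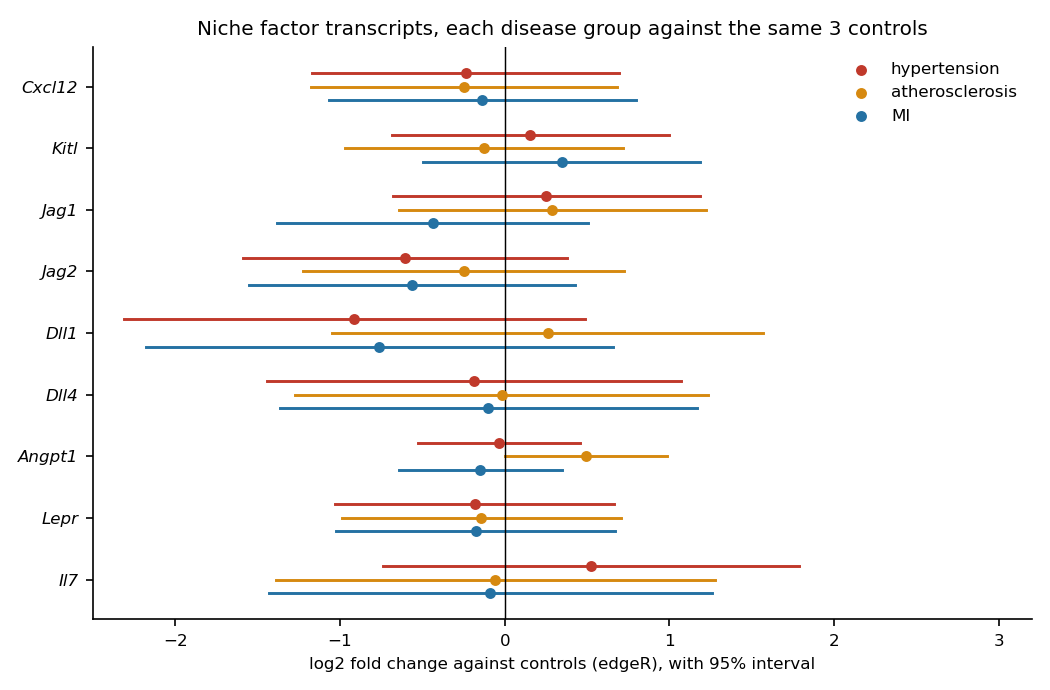
Log2 fold change of each niche factor in hypertension, atherosclerosis and MI against the same 3 controls, as points with 95% intervals from edgeR. Every interval includes 0, that of *Angpt1* in atherosclerosis only just, and the intervals of *Dll1*, *Dll4* and *Il7* are the widest.

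The receptors of these factors were measured in the same libraries. *Kit* was at 32.8 to 54.1 CPM and *Cxcr4* at 9.85 to 17.7 CPM over the 12 libraries, while *Ackr3*, the scavenging receptor of CXCL12, was at 0.217 to 0.776 CPM. *Notch1* (15.5 to 23.5 CPM) and *Notch2* (11 to 24.2 CPM) exceeded the endothelial *Notch4* (1.4 to 4.11 CPM) and *Notch3* (0.970 to 1.82 CPM) in CPM, although these genes differ in length. *Tek*, which encodes TIE2, was at 2.7 to 8.0 CPM and *Tie1* at 5.31 to 14.2 CPM. *Lep*, the gene of leptin, had 0 counts in every library. None of these receptors was called in any comparison by edgeR, beside 0.0% to 0.269% of all genes tested across the comparisons.

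*Il7r*, the receptor chain for IL-7 and a target of the depletion before the sort, was the receptor with the smallest p. It was at 33.2, 23.6 and 25.5 CPM in controls, 18.7, 24.8 and 16.7 CPM in hypertension, 32.9, 28.0 and 24.3 CPM in atherosclerosis and 22.7, 15 and 21.5 CPM in MI. All MI libraries were below all controls and all atherosclerosis libraries. Groups did not overlap for 8.86% of all genes in MI against controls and 13.7% in MI against atherosclerosis. The B lineage markers, *Il7r* among them, were ordered in the same way. They summed to 275 to 575 CPM in MI, 612 to 884 CPM in controls and 576 to 1306 CPM in atherosclerosis. The part of B lineage cells in the values of *Il7r* was not tested. The log2 fold change in MI was -0.48 (SE 0.21, adjusted p = 1.00 by edgeR), and between MI and atherosclerosis the log2 difference was -0.53 (adjusted p = 0.329 by edgeR). Its partner *Il2rg* ranged from 40.1 to 136 CPM.

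Beyond the receptors, 8 lists of pathway genes were examined, 96 genes in all of which 86 were tested. edgeR called 0 of the 86 in each comparison at an adjusted p under 0.05. Unadjusted p values under 0.05 were found for 4 genes in hypertension (4.65% of those tested), 7 in atherosclerosis (8.14%) and 3 in MI (3.49%); the shares of all genes are those given above. The lists are described by their medians and by the gene with the smallest p in each.

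Among 9 genes of the CXCL12 axis, median log2 fold changes were 0.00 in hypertension, -0.04 in atherosclerosis and 0.15 in MI. *Dpp4*, whose product is the peptidase that inactivates CXCL12, had 18.3, 16.8 and 19.2 CPM in controls and 12, 12.4 and 12.4 CPM in MI. Those groups did not overlap, and the log2 fold change was -0.56 (SE 0.14), but the adjusted p by edgeR was 1.00. Against atherosclerosis (18.1, 19.7 and 18.3 CPM) the log2 difference of *Dpp4* in MI was -0.61, with an adjusted p of 0.0976 by edgeR. *Elane*, a neutrophil elastase that cleaves CXCL12, had the smallest p of the list in atherosclerosis (log2 fold change -0.59, adjusted p = 0.831 by edgeR).

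The 6 genes of the KIT axis had medians of -0.11, -0.06 and -0.20 in hypertension, atherosclerosis and MI. *Adam33*, a sheddase that cleaves KITL, was at 10.03, 8.39 and 9.35 CPM in controls and 12, 14.6 and 12.3 CPM in hypertension (log2 fold change 0.49, adjusted p = 0.951 by edgeR). *Adam17*, a sheddase of many membrane proteins, had the smallest p in MI, with a log2 fold change of -0.27 (adjusted p = 1.00 by edgeR).

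Of 14 Notch receptors and targets 12 were tested, with medians of -0.13, -0.02 and -0.22. *Hes1*, the classic Notch target, was at 14, 8.93 and 10.6 CPM in controls. Hypertension gave 8.90, 8.14 and 5.71 CPM and MI 7.78, 6.72 and 8.28 CPM, all below the controls, the nearest pair being 8.90 and 8.93 CPM. Log2 fold changes were -0.56 in each of these diseases (adjusted p = 0.951 and 1.00 by edgeR). In atherosclerosis *Efnb2*, an arterial Notch target, had the smallest p (log2 fold change -0.94, adjusted p = 0.884 by edgeR). It was at 0.222, 1.12 and 1.38 CPM there and at 0.617, 1.35 and 3.10 CPM in controls. Of 20 genes of the Notch machinery 17 were tested, with medians of -0.05, 0.02 and -0.07. The smallest p in hypertension was that of *Rfng*, which glycosylates Notch (log2 fold change -0.30). In atherosclerosis it was that of *Maml2*, a coactivator (0.70). *Maml2* was at 18.8, 6.11 and 5.96 CPM there and at 6.84, 6.50 and 5.78 CPM in controls. In MI the smallest p was that of *Rbpj*, the DNA-binding partner of Notch (0.23).

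The 7 genes of the angiopoietin-TIE axis had medians of -0.28 in hypertension, 0.14 in atherosclerosis and 0.07 in MI. *Angpt2*, the context-dependent antagonist of ANGPT1 that activated endothelium secretes, was at 1.07, 0.704 and 0.853 CPM in controls and at 1.91, 1.76 and 1.68 CPM in atherosclerosis. These groups did not overlap, and the log2 fold change was 1.03 (SE 0.30, adjusted p = 0.460 by edgeR). *Angpt2* was thus higher in the same group as *Angpt1* and, as for *Angpt1*, its difference failed the correction. In MI the smallest p of the list was that of *Svep1* (log2 fold change 0.69, adjusted p = 1.00 by edgeR).

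Of the 7 leptin axis genes 6 were tested, with medians of -0.07, 0.13 and 0.04. *Leprot*, whose product limits leptin receptor at the cell surface, was at 174, 180 and 178 CPM in controls and 231, 215 and 273 CPM in hypertension (log2 fold change 0.44, adjusted p = 0.951 by edgeR). *Socs3*, the feedback inhibitor of leptin and IL-6 signalling, had the smallest p in atherosclerosis and in MI, with log2 fold changes of 0.62 and 0.63 and standard errors of 0.56. The 8 IL-7 axis genes had medians of -0.19, 0.12 and -0.05. *Stat5a*, a transcription factor downstream of IL-7, was at 25.5, 26.0 and 30.1 CPM in controls and 20.9, 21.9 and 21.5 CPM in hypertension (log2 fold change -0.34, adjusted p = 0.951 by edgeR). *Jak1* had the smallest p in atherosclerosis (0.46, adjusted p = 0.884 by edgeR). It was at 979, 388 and 465 CPM there and at 413, 465 and 454 CPM in controls.

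Among 26 other niche factors 22 were tested, with medians of 0.13 in hypertension, 0.24 in atherosclerosis and 0.12 in MI. *Il6*, an inflammatory cytokine that drives myelopoiesis, came nearest to a call in this list. Its log2 fold change in atherosclerosis was 1.63 (adjusted p = 0.0973 by edgeR). Between MI and atherosclerosis the log2 difference was -1.41 (adjusted p = 0.0890 by edgeR). *Il6* also had the smallest p of the list in hypertension (log2 fold change 0.75, adjusted p = 0.951 by edgeR). It was at 2.09, 3.68 and 3.66 CPM there and at 2.07, 1.79 and 1.75 CPM in controls. *Spp1*, which encodes osteopontin, a negative regulator of stem cell number, had the smallest p in MI, at 108, 77.5 and 42.7 CPM against 48.5, 39.7 and 62.5 CPM in controls. Its groups overlapped, and the log2 fold change was 0.60 (SE 0.38, adjusted p = 1.00 by edgeR).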

How the data were processed

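The authors aligned single-end reads of strand-specific, polyadenylated RNA libraries to GRCm38.p6 with STAR 2.7.3a and deposited its raw counts per Ensembl gene, not normalized. The strand column they took is not given in the sources used here, so opposite-strand genes cannot be told apart from the factors they overlap. All 12 columns were used, matched to mice by the labels. Symbols, positions and lengths came from GENCODE for the same build (55240 of 55421 genes matched).

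Counts were filtered with filterByExpr, scaled by TMM and fitted in edgeR 4.0.16 (R 4.3.3) with 1 coefficient per group. Quasi-likelihood tests were two-sided, with Benjamini-Hochberg adjustment over 15999 genes and calls at an adjusted p under 0.05. Standard errors are the fold change over the root of F. The exact permutation test compared mean CPM, 3 libraries against 3. Log2 CPM used a prior count of 2. No 2 libraries of a group were duplicates (chi-square per degree of freedom of at least 17.3 in the 12 pairs within groups). The fit was first tested on simulated counts with known changes. Intervals cover the spread between libraries. Niche factors, receptors, lists, markers and tests were chosen with earlier results of these data known. Genes named are the 9 factors, their receptors, the smallest-p gene of each list and the 3 genes most correlated with each factor; marker and opposite-strand genes were added beside the results they touch. Alternatives were edgeR's likelihood-ratio test, DESeq2 1.42.0, RLE factors, a filter of 1 count in total or of 10 counts in each library, a fit to the groups compared alone, a replicate block, immunoglobulin and hemoglobin genes left out, each library left out, the longest transcript as length and Spearman correlation. The 18-gene stromal sum was added after seeing the data. RefSeq promoters of *Angpt1* and *Il7* were not used here.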

Additional observations from a re-analysis of the deposited data

How the results depend on the processing

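No niche factor was called in any of the 6 comparisons under any of the 14 alternatives run for each, including each library left out. In the comparisons with controls, log2 fold changes kept their sign in all 206 values from alternatives other than leaving out a library and turned in 38 of 162 values that left out a library; between disease groups they turned in 4 of 207 and 40 of 162. *Dll1* and *Il7* have no value under the stricter filters that removed them.

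Leaving out each library gave these ranges of log2 fold change against controls. In hypertension the ranges were -0.93 to 0.083 for *Cxcl12*, -0.46 to 0.50 for *Kitl*, -0.16 to 0.49 for *Jag1*, -0.93 to 0.0806 for *Jag2*, -0.49 to 0.41 for *Dll4*, -0.18 to 0.22 for *Angpt1* and -0.67 to 0.15 for *Lepr*. In atherosclerosis they were -0.50 to 0.0705 for *Cxcl12*, -0.29 to 0.12 for *Kitl*, -0.35 to 0.65 for *Jag1*, -0.63 to 0.44 for *Jag2*, -0.11 to 1.10 for *Dll1*, -0.33 to 0.58 for *Dll4*, -0.34 to 0.0959 for *Lepr* and -0.73 to 0.35 for *Il7*. In MI they were -0.39 to 0.18 for *Cxcl12*, -0.0164 to 0.58 for *Kitl*, -0.88 to 0.12 for *Jag2*, -1.08 to 0.0791 for *Dll1*, -1.27 to 0.49 for *Dll4*, -0.38 to 0.10 for *Angpt1*, -0.34 to 0.0583 for *Lepr* and -0.43 to 0.24 for *Il7*. *Angpt1* between MI and hypertension ranged from -0.35 to 0.0127. The cause of these turns was not tested. *Angpt1* kept its direction under every alternative in atherosclerosis against controls (0.34 to 0.74, adjusted p from 0.473 to 0.997), against hypertension (0.38 to 0.60, adjusted p from 0.514 to 0.998) and in MI against atherosclerosis (-0.87 to -0.49, adjusted p from 0.162 to 0.662).

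Counts over all genes moved more. With no filter on low counts 170 genes were called in hypertension, 432 in atherosclerosis, 130 in MI, 235 in atherosclerosis against hypertension, 422 in MI against hypertension and 790 in MI against atherosclerosis. The likelihood-ratio test called 81 in atherosclerosis, 1 in MI, 70 in atherosclerosis against hypertension, 2 in MI against hypertension and 274 in MI against atherosclerosis, and DESeq2 called 81, 1, 76, 22 and 301. With only the 2 groups compared 4 were called in atherosclerosis, 1 in MI and 3 in MI against atherosclerosis, and without immunoglobulin and hemoglobin genes 66 in the last. Leaving out a library gave 2 to 34 in atherosclerosis, 3 to 36 in atherosclerosis against hypertension and 8 to 93 in MI against atherosclerosis. The cause was not tested.

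Same-numbered libraries correlated in their deviations from group means between -0.28 and 0.30, over 0.1 in 5 of 18 pairs. Of the 12 libraries, 4 were most like one of their own number. Whether some same-numbered libraries shared a batch was not tested. The replicate block called 7 genes in atherosclerosis and 22 in MI against atherosclerosis, and 0 niche factors.

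With the longest transcript as length the order of the 9 levels was the same, and the median of *Cxcl12* was 31.0 CPM per kb. By Spearman's rho 9 of the 27 likest genes stayed among the 3 highest of their factor. Depth limits *Dll1*, *Il7*, *Jag2* and *Dll4* most.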
